A study of Mus musculus with 12 samples.

Results

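The genes described here encode enzymes that use molecular oxygen to act on chromatin, DNA, RNA or protein: the JmjC domain genes, the TET genes and the AlkB genes. Kdm1a and Kdm1b, histone demethylases that use a flavin in place of iron, were included for contrast. Members were taken from a list of 41 mouse gene symbols. The list itself uses no measured value, but it was chosen with earlier results of these data known. All 41 were found among the 48709 gene IDs of the count tables, and 39 passed the filter on low counts. Kdm4d, a demethylase known from the testis, had 33 counts and Tet1, a DNA dioxygenase of pluripotent cells, had 27 counts over all 12 libraries, and neither was tested.

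JmjC, TET and AlkB enzymes share an iron centre and consume oxygen and 2-oxoglutarate in each turn. JmjC demethylases remove methyl groups from histone lysines, TET enzymes oxidise 5-methylcytosine, and AlkB enzymes remove methyl groups from nucleic acids. Several genes of these families are known to be transcribed more in low oxygen through hypoxia-inducible factors (HIFs), the transcription factors whose stability the oxygen-sensing prolyl hydroxylases set.

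RNA was taken from cultured mouse embryonic fibroblasts of strain C57BL/6, either wild type (WT) or labelled TAZKo. TAZ (tafazzin) remodels cardiolipin, a lipid of the inner mitochondrial membrane. Each genotype was kept in normoxia or put for 24 h in a hypoxia workstation, with 3 libraries in each of the 4 groups. The labels give neither the oxygen level, the number of cell lines or clones behind a genotype, nor how the gene was disrupted. They also do not say whether libraries of a group came from separate cultures, so p-values may measure only technical spread. In these bulk samples, fewer cells that express a gene and less RNA per cell cannot be told apart.

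Total counts ran from 21039451 to 31204510 per library, so 3 counts correspond to between 0.0961 and 0.143 CPM, counts divided by the library total on edgeR's usual scale. Levels below are CPM scaled by edgeR's trimmed mean of M-values, and differences are on the log2 scale with their standard error (SE). Taz stood at 38.0, 33.3 and 32.7 CPM in WT normoxia and 45.8, 39.8 and 41.0 CPM in TAZKo normoxia, then at 25.5, 26.4 and 23.5 CPM in WT hypoxia and 33.6, 32.8 and 35.1 CPM in TAZKo hypoxia. Taz was thus not lower in the TAZKo groups, and the genotype is given here as labelled: every genotype direction below is that of the libraries labelled TAZKo. Of 10 fibroblast markers, 8 were above 1 CPM in every group, while Thy1 and Lum were not. Of the 8 tested, 4 were called higher and 2 lower in TAZKo normoxia (from −1.33 to 1.07). In TAZKo hypoxia 3 were called higher and 2 lower (from −1.39 to 0.93). Among markers of other cell types, the summed endothelial markers were 19.3 and 16.8 CPM in WT and 6.51 and 4.54 CPM in TAZKo (normoxia first): Kdr and Tek were lower in TAZKo in both conditions, while Pecam1, under 1 CPM, was called higher in normoxia. The summed epithelial markers were 378 and 327 CPM in WT and 204 and 257 CPM in TAZKo, with Krt18 and Krt14 above 1 CPM in every group. Of the 3 tested, 3 were called lower in TAZKo normoxia and 1 in TAZKo hypoxia. The summed blood markers were 3.42 and 7.45 CPM in WT and 5.76 and 7.14 CPM in TAZKo. Of 2 tested, 1 was called higher in TAZKo in each condition, with differences up to 2.45 in normoxia and 2.95 in hypoxia. The summed muscle markers, of which Des alone passed 1 CPM, were 4.20 and 3.58 CPM in WT and 9.73 and 5.99 CPM in TAZKo. Des was higher in TAZKo by 1.22 in normoxia and 0.72 in hypoxia. The defining genes Cdh5, Epcam and Cdh1 were also under 1 CPM, and the part of these cells in the genotype differences was not tested. One library, WT normoxia replicate 1, stood apart on the third principal component (35.7, against −13.4 to 10.5 in the others) and had the lowest mitochondrial share of counts (0.921%). Several results that rest on it are given with and without it.

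Levels of the members, compared between genes only per kilobase (kb) of annotated exon, spread widely. Over the 12 libraries the mean ran from 1.97 CPM per kb for Kdm7a to 54.7 CPM per kb for Alkbh5 among the 39 tested members, with a median of 7.43 CPM per kb. The middle member, Jmjd8, exceeded 54.6% of all tested genes on this scale. After Alkbh5 came Jmjd6 at 41.8, Kdm5c at 33.0 and Kdm1a at 32.8 CPM per kb. Kdm5c and Kdm1a were close in every group: Kdm5c averaged 32.5, 28.7, 36.8 and 34.2 CPM per kb in WT normoxia, TAZKo normoxia, WT hypoxia and TAZKo hypoxia. Kdm1a averaged 33.1, 33.0, 32.8 and 32.4 CPM per kb in the same order. The order itself changed with oxygen: Alkbh5 stood at 34.4 and Kdm1a at 33.1 CPM per kb in WT normoxia, and at 77.3 and 32.8 CPM per kb in WT hypoxia. Kdm3a went from 8.27 to 35.5 CPM per kb in WT.

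**Figure D1:**
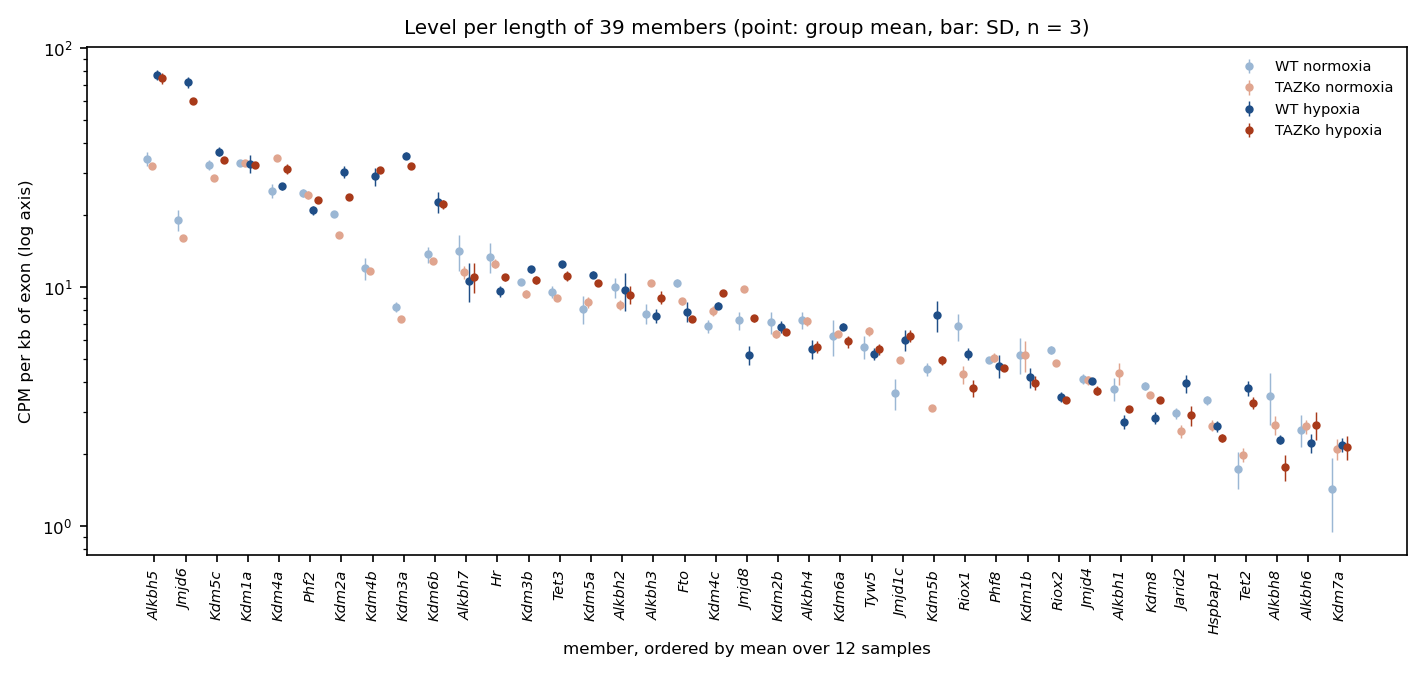
Level per length of the 39 tested members (log axis, CPM per kb of exon), ordered by the mean over 12 samples; points are group means, bars the SD of 3 samples. Alkbh5 and Jmjd6 lead at 54.7 and 41.8 CPM per kb, and Kdm7a is lowest at 1.97 CPM per kb.

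In WT, 24 h of hypoxia raised 16 and lowered 12 of the 39 tested members. Over all 14408 tested genes, 51% were called in either direction at an adjusted p under 0.05, 26% higher and 25% lower. Under the TAZKo label, 14 members rose and 8 fell, where 43.8% of all genes were called, 22.2% higher and 21.6% lower. The member median was −0.03 in WT and −0.03 in TAZKo, beside 0.009 and −0.009 for all tested genes, so the members did not move one way as a whole. The 14 members that rose in TAZKo make up 100% of the TAZKo list and 87.5% of the WT list: Kdm3a, Jmjd6, Kdm4b, Alkbh5, Tet2, Kdm5b, Jmjd1c, Kdm6b, Kdm2a, Kdm5a, Tet3, Kdm4c, Kdm3b and Kdm5c. Falls were called in both genotypes for 6 members, Riox2, Alkbh8, Jmjd8, Alkbh1, Fto and Alkbh4, which are 50% of the WT list and 75% of the TAZKo list. No member was called in opposite directions, and 9 were called in neither. The overlap of calls between genotypes was not computed over all tested genes, so these shares describe the members only.

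Of the 18 tested JmjC genes tied to histone methyl marks (Jarid2 included), 12 rose and 2 fell in WT, and 10 rose and 0 fell in TAZKo. Of the 17 small JmjC proteins and AlkB genes, whose known substrates are mostly tRNA, mRNA, DNA and proteins of the ribosome and splicing machinery, 2 rose and 10 fell in WT, and 2 rose and 7 fell in TAZKo. The 2 that rose were Jmjd6 and Alkbh5 in both genotypes. These 2 wider groups were put together after the values were seen, so they carry no test. Scaling by library size alone shifted the median of all genes in WT from 0.009 to −0.097 and turned the TAZKo split of all members from 14 higher and 8 lower to 10 higher and 15 lower. It turned the TAZKo split of the histone-linked JmjC genes to 6 higher and 4 lower. Relative to the median of all genes, that group's median was 0.24 in TAZKo under either scaling, and that of the small JmjC and AlkB genes was −0.17 and −0.18. A change of scaling shifts all genes of a contrast by nearly the same amount. These relative medians were therefore bound to agree, and their agreement is no support for the 2 groups.

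**Figure D2:**
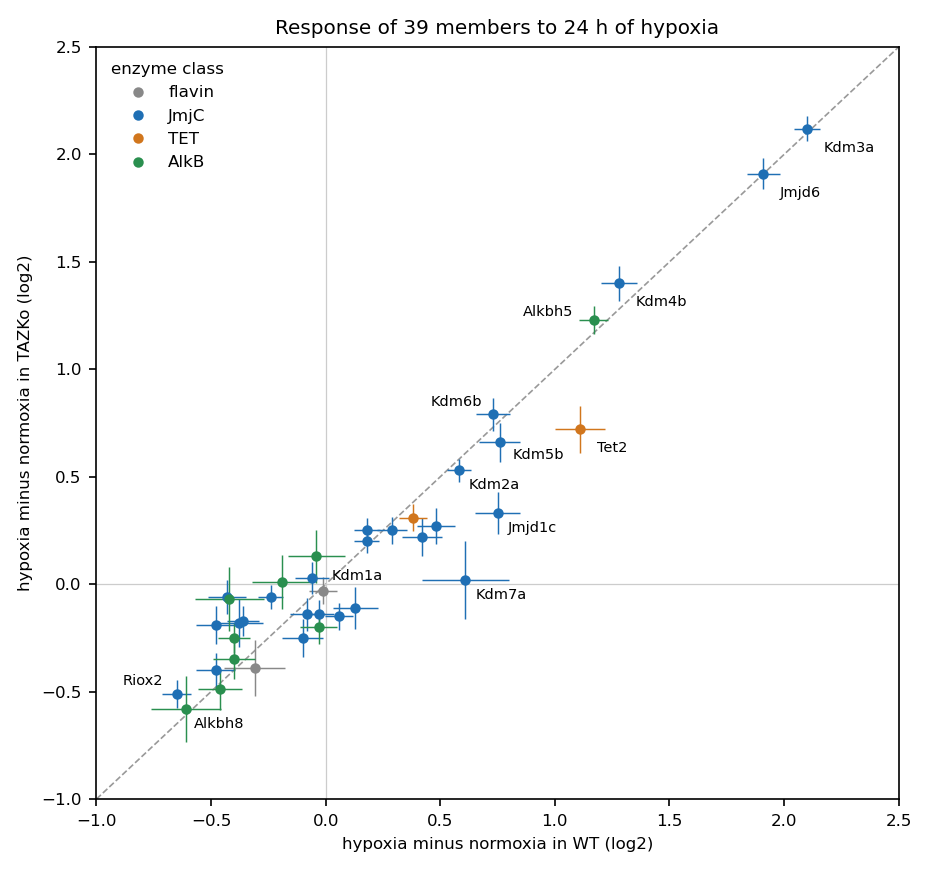
Hypoxia minus normoxia (log2) of the 39 tested members in WT (x axis) and TAZKo (y axis), coloured by enzyme class; bars are SE and the dashed line marks equal responses. Kdm3a, Jmjd6, Kdm4b and Alkbh5 lie near the line above 1 in both genotypes, while Tet2, Jmjd1c and Kdm7a lie below it.

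The flavin demethylase Kdm1a (LSD1), which removes mono- and dimethyl marks from H3K4 in the CoREST complex, was level across the design. It stood at 173, 173 and 169 CPM in WT normoxia and 187, 163 and 161 CPM in WT hypoxia, against 175, 169 and 168 CPM in TAZKo normoxia and 168, 171 and 164 CPM in TAZKo hypoxia. Values of all groups overlapped, and only WT hypoxia replicate 1, at 187 CPM, lay above the rest. Its hypoxia difference was −0.01 in WT (95% interval −0.15 to 0.12) and −0.03 in TAZKo (−0.16 to 0.11); without that library the WT value was −0.14 (adjusted p = 0.0427), a call. Kdm1b (LSD2), its relative known from the oocyte, gave 23.1, 30.7 and 32.3 CPM in WT normoxia and 20.6, 24.8 and 23.9 CPM in WT hypoxia. The TAZKo values were 24.0, 32.2 and 29.5 CPM in normoxia and 22.8, 20.1 and 22.7 CPM in hypoxia. In both genotypes replicate 1 was the lowest normoxic library, and the WT groups overlapped. Kdm1b fell in TAZKo, at −0.39 (SE 0.132, adjusted p = 0.0281), a call lost without TAZKo normoxia replicate 2 (−0.32, adjusted p = 0.0976), TAZKo normoxia replicate 3 (−0.40, adjusted p = 0.0657) or TAZKo hypoxia replicate 2 (−0.36, adjusted p = 0.088). In WT the difference was −0.31 (SE 0.132, adjusted p = 0.0628), and with replicate numbers as a block it was −0.31 (adjusted p = 0.0189). Without WT normoxia replicate 1 it was −0.45 (adjusted p = 0.00311), and 8 of 12 refits with 1 library left out made it a call.

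Among the H3K36 demethylases, Kdm2a, which binds unmethylated CpG islands, rose in hypoxia and was lower in TAZKo. Kdm2a stood at 292, 296 and 290.4 CPM in WT normoxia and 457, 411 and 449 CPM in WT hypoxia. It stood at 239, 235 and 241 CPM in TAZKo normoxia and 339.7, 353 and 340.1 CPM in TAZKo hypoxia. The 4 groups did not overlap, with TAZKo normoxia lowest and WT hypoxia highest. The hypoxia difference was 0.58 (SE 0.0527, adjusted p = 8.51e-07) in WT and 0.53 (SE 0.0527, adjusted p = 3.25e-06) in TAZKo, and the genotype difference was −0.30 (SE 0.0527, adjusted p = 0.000775) in normoxia and −0.35 (SE 0.0526, adjusted p = 0.000189) in hypoxia. Kdm2a lies on chromosome 19, whose 492 tested genes had a median genotype difference of −0.27 in normoxia and −0.28 in hypoxia, close to the gene's own. Kdm2b, which brings a Polycomb complex to CpG islands, was called in no comparison, with differences from −0.16 to 0.03. Its normoxic genotype difference became a call in 2 of 12 refits with 1 library left out, with adjusted p down to 0.0457. Kdm2b shares 23.8% of its 50-base words with Rnf34.

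Kdm3a, a demethylase of mono- and dimethyl H3K9 long known as a HIF target, had the largest rise among the members in both genotypes. It stood at 64.2, 68.9 and 70.8 CPM in WT normoxia and 291, 282 and 303 CPM in WT hypoxia. Under the TAZKo label the values were 62.1, 59.3 and 60.6 CPM in normoxia and 266, 257 and 268 CPM in hypoxia. All 6 hypoxic libraries lay far above all 6 normoxic ones, and within each oxygen condition the TAZKo libraries lay below the WT libraries. The rise was 2.10 (SE 0.0574, adjusted p = 7.58e-12) in WT and 2.12 (SE 0.0575, adjusted p = 9.51e-12) in TAZKo, or 4.29-fold and 4.35-fold. The genotype difference was small and near the threshold, −0.16 (SE 0.0564, adjusted p = 0.0412) in normoxia and −0.15 (SE 0.0546, adjusted p = 0.0558) in hypoxia. The normoxic call was lost without WT normoxia replicate 3 (−0.17, adjusted p = 0.0596) or TAZKo normoxia replicate 2 (−0.19, adjusted p = 0.0614), and the hypoxic difference was a call without WT normoxia replicate 1 (−0.15, adjusted p = 0.0139) or WT normoxia replicate 3 (−0.15, adjusted p = 0.0433).

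Jmjd1c, a large relative of Kdm3a, differed between genotypes in normoxia and rose in hypoxia. Jmjd1c stood at 53.6, 67.5 and 71.2 CPM in WT normoxia and 88.8, 87.2 and 90.0 CPM in TAZKo normoxia. In hypoxia it reached 95.8, 109.7 and 117 CPM in WT and 114, 104 and 117 CPM in TAZKo. The normoxic groups did not overlap and the hypoxic groups did, with WT normoxia replicate 1 the lowest library of all. The normoxic genotype difference was 0.47 (SE 0.0989, adjusted p = 0.00273), or 0.35 (adjusted p = 0.00238) without that library, and the hypoxic one was 0.05 (SE 0.0976, adjusted p = 0.729). Jmjd1c lies on chromosome 10, where the median of 676 genes was 0.31 in normoxia and 0.29 in hypoxia. Hypoxia raised it by 0.75 (SE 0.099, adjusted p = 3.04e-05) in WT and by 0.33 (SE 0.0978, adjusted p = 0.0142) in TAZKo. The TAZKo rise lost its call in 5 of 12 refits with 1 library left out, those without TAZKo normoxia replicates 1, 2 or 3 and TAZKo hypoxia replicates 1 or 3, with values down to 0.27 and adjusted p up to 0.086.

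The remaining H3K9 genes moved less. Kdm3b, the closest relative of Kdm3a, averaged 148 ± 0.686 CPM in WT normoxia and 167 ± 5.25 CPM in WT hypoxia (SD, n = 3), a difference of 0.18 (SE 0.0542, adjusted p = 0.0131). That call was lost in 11 of 12 refits with 1 library left out, each but the one without WT normoxia replicate 1, with values down to 0.11 and adjusted p up to 0.165. In TAZKo it rose by 0.20 (SE 0.0542, adjusted p = 0.00927), a call lost without TAZKo normoxia replicates 2 or 3 or TAZKo hypoxia replicate 2, with adjusted p up to 0.0917. Hr (Hairless), a corepressor of nuclear receptors, fell in WT, at −0.48 (SE 0.0877, adjusted p = 0.00048), while in TAZKo it gave −0.19 (SE 0.0871, adjusted p = 0.0935). Over the 4 H3K9 genes, 3 rose in both genotypes.

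As a share of the summed level per kb of these 4 genes, Kdm3a made up 23.2% ± 1.70 in WT normoxia and 21.5% ± 0.222 in TAZKo normoxia (SD, n = 3). In hypoxia its share was 56.3% ± 0.318 in WT and 53.4% ± 0.925 in TAZKo, so Kdm3a went from behind Hr and Kdm3b to more than both together. Hr went from 37.4% ± 4.21 to 15.3% ± 0.792 in WT and from 36.6% ± 0.529 to 18.3% ± 0.677 in TAZKo.

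The Kdm4 enzymes, which act on trimethyl H3K9 and H3K36, split by member. Kdm4b stood at 66, 54.4 and 55.5 CPM in WT normoxia and 154, 129.8 and 143 CPM in WT hypoxia. Its TAZKo values were 59.0, 56.4 and 56.0 CPM in normoxia and 153, 153 and 148 CPM in hypoxia. Every hypoxic library lay above every normoxic one and the genotypes overlapped under both conditions. Kdm4b rose by 1.28 (SE 0.0801, adjusted p = 2.45e-08) in WT and 1.40 (SE 0.0801, adjusted p = 1.51e-08) in TAZKo. Kdm4a was called for genotype and not for hypoxia, although its TAZKo response, −0.15 (SE 0.061, adjusted p = 0.0577), became a call in 7 of 12 refits with 1 library left out. It averaged 146 ± 9.99 CPM in WT normoxia and 199.9 ± 2.73 CPM in TAZKo normoxia (SD, n = 3), a difference of 0.45 (SE 0.0613, adjusted p = 8.64e-05). The hypoxic genotype difference of Kdm4a was 0.24 (SE 0.0612, adjusted p = 0.00909), a call lost without TAZKo hypoxia replicate 2 (0.19, adjusted p = 0.0549). Both Kdm4a and Kdm4c lie on chromosome 4, where the median genotype difference was 0.13 in each condition. Kdm4c rose slightly in hypoxia, by 0.29 (SE 0.0648, adjusted p = 0.00207) in WT and 0.25 (SE 0.064, adjusted p = 0.00656) in TAZKo, the latter lost without TAZKo normoxia replicate 1 (0.17, adjusted p = 0.0696) or TAZKo hypoxia replicate 1 (0.20, adjusted p = 0.0542).

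Within the summed Kdm4a, Kdm4b and Kdm4c level per kb, Kdm4b took 27.1% ± 1.32 in WT normoxia and 45.5% ± 2.31 in WT hypoxia. The TAZKo shares of Kdm4b were 21.5% ± 0.457 in normoxia and 43.2% ± 0.686 in hypoxia. Kdm4a led in normoxia with 57.3% ± 0.527 in WT and 63.8% ± 0.338 in TAZKo, and was close to Kdm4b in hypoxia at 41.4% ± 2.13 and 43.5% ± 1.06.

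All 3 H3K4 demethylases of the Kdm5 family rose in both genotypes, and Kdm5b also differed between genotypes. Kdm5b stood at 70.2, 75.1 and 79.6 CPM in WT normoxia and 148, 114 and 118 CPM in WT hypoxia. For TAZKo the values were 52.8, 51.6 and 51.2 CPM in normoxia and 79.0, 85.5 and 80.8 CPM in hypoxia. Each TAZKo group lay below the WT group of the same oxygen condition, and TAZKo hypoxia overlapped the upper end of WT normoxia. Hypoxia raised Kdm5b by 0.76 (SE 0.089, adjusted p = 1.03e-05) in WT and 0.66 (SE 0.0898, adjusted p = 5.75e-05) in TAZKo. The genotype difference was −0.53 (SE 0.0899, adjusted p = 0.000546) in normoxia and −0.63 (SE 0.0886, adjusted p = 0.000114) in hypoxia, where the median of chromosome 1 was −0.02 and −0.06.

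Kdm5a, which binds the retinoblastoma protein, rose by 0.48 (SE 0.0833, adjusted p = 0.000313) in WT and 0.27 (SE 0.0831, adjusted p = 0.0175) in TAZKo. The TAZKo call was lost in 5 of 12 refits with 1 library left out (without TAZKo normoxia replicates 1 or 3, or any TAZKo hypoxia library), with adjusted p up to 0.13. Kdm5c, an X-linked gene, rose by 0.18 (SE 0.0561, adjusted p = 0.0159) in WT and 0.25 (SE 0.0562, adjusted p = 0.0025) in TAZKo; the WT call was lost in 11 of 12 such refits, each but that without WT normoxia replicate 1, with values down to 0.09 and adjusted p up to 0.225. Kdm5c remained the most abundant Kdm5 gene per kb in all groups, with 72% ± 3.01 of the summed level in WT normoxia and 66% ± 0.353 in WT hypoxia. The Y-linked partner of Kdm5c, Kdm5d, had 0 or 1 counts in every library, as did Uty, the partner of Kdm6a, and Xist had 1 to 7 counts. Levels of Kdm5c and Kdm6a were therefore measured in both genotypes without Y-linked partner transcripts above the floor.

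The H3K27 demethylase Kdm6b (JMJD3), known as an inducible gene, rose in hypoxia, and Kdm6a (UTX), a subunit of H3K4 methyltransferase complexes, was called in no comparison. Kdm6b stood at 103, 92.1 and 90.4 CPM in WT normoxia and 172, 142 and 159 CPM in WT hypoxia. The values labelled TAZKo were 90.4, 87.5 and 90.4 CPM in normoxia and 155, 161 and 148 CPM in hypoxia. Hypoxic and normoxic libraries did not overlap, and genotypes overlapped under each condition. The rise was 0.73 (SE 0.0761, adjusted p = 3.41e-06) in WT and 0.79 (SE 0.0761, adjusted p = 2.39e-06) in TAZKo. Kdm6a gave 0.13 (SE 0.0985, adjusted p = 0.276) in WT and −0.11 (SE 0.0984, adjusted p = 0.405) in TAZKo. Its hypoxic genotype difference ran from −0.26 to −0.18 with 1 library left out. It became a call in 1 of 12 such refits, that without WT normoxia replicate 1 (adjusted p = 0.00744), and in 1 of 9 other alternatives.

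Of the PHD-JmjC genes, Kdm7a, a demethylase of dimethyl H3K9 and H3K27, was the tested member with the lowest level per kb, and its calls depended on single libraries. It stood at 8.94, 16.1 and 18.3 CPM in WT normoxia and 22.8, 20.4 and 23.1 CPM in WT hypoxia. The corresponding TAZKo values were 18.8, 21.6 and 23.0 CPM and 21.6, 19.1 and 24.0 CPM. WT normoxia was the low group, with replicate 1 lowest, and the 3 other groups overlapped. The WT rise was 0.61 (SE 0.189, adjusted p = 0.0156); it was 0.36 (adjusted p = 0.0131) without WT normoxia replicate 1, and its call was lost without WT hypoxia replicate 1 (0.53, adjusted p = 0.0581) or replicate 3 (0.52, adjusted p = 0.0765). The normoxic genotype difference was 0.55 (SE 0.188, adjusted p = 0.0421), 0.30 (adjusted p = 0.0479) without WT normoxia replicate 1, and lost its call without any 1 of 10 other libraries, the exception being WT normoxia replicate 3, with adjusted p up to 0.169. Phf2, a demethylase of dimethyl H3K9, fell in WT, at −0.24 (SE 0.0559, adjusted p = 0.00249), and gave −0.06 (SE 0.0557, adjusted p = 0.4) in TAZKo, while Phf8 was called in no comparison. With 1 library left out, the hypoxia response of Phf8 was a call in 1 of 12 refits in each genotype. The adjusted p was 0.0356 in WT and 0.0406 in TAZKo. Jarid2, a Polycomb subunit without demethylase activity, rose in WT by 0.42 (SE 0.0887, adjusted p = 0.00143) and was lower in TAZKo hypoxia, at −0.44 (SE 0.0886, adjusted p = 0.00179). Its normoxic genotype difference, −0.24 (SE 0.0898, adjusted p = 0.0548), was a call in 8 of 12 refits with 1 library left out.

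**Figure D3:**
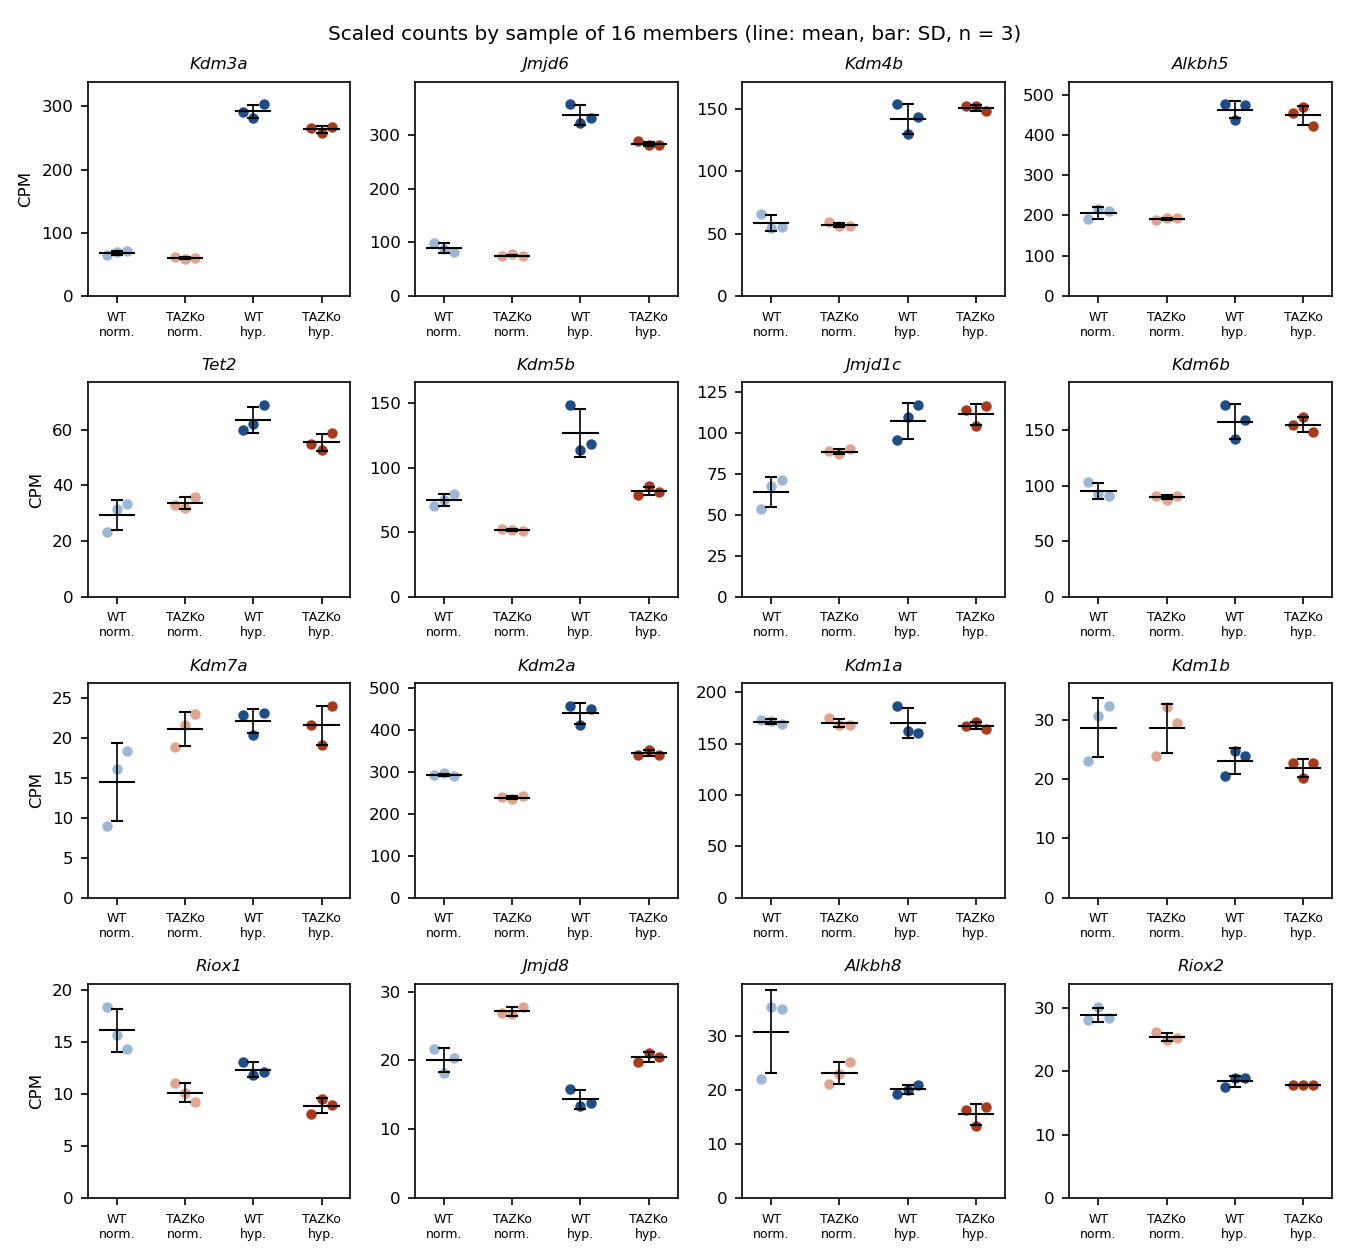
Scaled counts (CPM, axes from 0) of 16 members in each of the 12 samples, in the order WT normoxia, TAZKo normoxia, WT hypoxia and TAZKo hypoxia; lines are means and bars SD of 3 samples. Kdm3a and Jmjd6 are far higher in both hypoxic groups, Kdm1a is level, and the low WT normoxia sample of Kdm7a, at 8.94 CPM, is replicate 1.

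Among the 8 small JmjC proteins, Jmjd6, a lysyl hydroxylase of splicing factors, rose most. Jmjd6 stood at 99.7, 87.1 and 82.4 CPM in WT normoxia and 357, 323 and 333 CPM in WT hypoxia. It had 74.8, 77.5 and 74.5 CPM in TAZKo normoxia and 288, 281 and 281 CPM in TAZKo hypoxia. No group overlapped another: hypoxia lay above normoxia, and TAZKo below WT within each. The rise was 1.91 (SE 0.071, adjusted p = 1.41e-10) in WT and 1.91 (SE 0.0712, adjusted p = 1.84e-10) in TAZKo, or 3.76-fold and 3.75-fold, and the genotype difference was −0.25 (SE 0.0699, adjusted p = 0.0161) in normoxia and −0.25 (SE 0.0682, adjusted p = 0.0117) in hypoxia.

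Riox1 (NO66) and Riox2 (MINA53), histidyl hydroxylases of ribosomal proteins, were lower in hypoxia, Riox1 in WT alone by the test. Riox1 stood at 18.4, 15.6 and 14.3 CPM in WT normoxia and 13.1, 11.8 and 12.1 CPM in WT hypoxia, against 11, 10.1 and 9.24 CPM and 8.12, 9.55 and 8.92 CPM in TAZKo. Every TAZKo library lay below every WT library. Riox1 had the largest genotype difference among the members in normoxia, −0.67 (SE 0.107, adjusted p = 0.000338), and gave −0.47 (SE 0.11, adjusted p = 0.00481) in hypoxia. Its WT fall was −0.38 (SE 0.106, adjusted p = 0.0083) and its TAZKo value −0.18 (SE 0.11, adjusted p = 0.201); the difference between the 2 responses was 0.20 (SE 0.153, adjusted p = 0.581), so it was not shown to be particular to WT.

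Riox2 stood at 28.1, 30.2 and 28.4 CPM in WT normoxia and 17.5, 18.9 and 18.9 CPM in WT hypoxia, against 26.1, 25 and 25.3 CPM and 17.8, 17.8 and 17.9 CPM in TAZKo. Normoxic libraries lay above hypoxic ones in both genotypes. The fall was −0.65 (SE 0.0639, adjusted p = 2.01e-06) in WT and −0.51 (SE 0.0638, adjusted p = 2.6e-05) in TAZKo. Its normoxic genotype difference, −0.18 (SE 0.0624, adjusted p = 0.0395), was lost without WT normoxia replicate 2 (−0.18, adjusted p = 0.0719), TAZKo normoxia replicate 2 (−0.21, adjusted p = 0.0629) or TAZKo normoxia replicate 3 (−0.21, adjusted p = 0.0606).

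Jmjd8, a protein of the endoplasmic reticulum, stood at 21.6, 18.2 and 20.3 CPM in WT normoxia and 15.9, 13.4 and 13.8 CPM in WT hypoxia. Its TAZKo values were higher, 26.8, 26.7 and 27.8 CPM in normoxia and 19.7, 21.1 and 20.6 CPM in hypoxia. TAZKo lay above WT within each condition, and hypoxia below normoxia within each genotype. The genotype difference was 0.44 (SE 0.0817, adjusted p = 0.00115) in normoxia and 0.52 (SE 0.0849, adjusted p = 0.000416) in hypoxia, and the fall in hypoxia was −0.48 (SE 0.0852, adjusted p = 0.000335) in WT and −0.40 (SE 0.0814, adjusted p = 0.00121) in TAZKo. The library kit does not mark strand, and 39.3% of Jmjd8 exon lies opposite exons of Mir3082 and Stub1, so its reads there cannot be told apart from theirs. The same holds for Riox1 (31.9%, Gm26571), Alkbh2 (29.5%, Usp30), Tyw5 (25.6%, Maip1), Kdm3b (24.6%, Gm26538) and Riox2 (22.4%, Crybg3). These are shares of exon length, and the share of reads affected is not known.

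The 4 other small JmjC genes had weaker or single calls. Hspbap1, named for its binding to a small heat shock protein, fell in WT, at −0.36 (SE 0.0695, adjusted p = 0.00069), and was lower in TAZKo normoxia, at −0.35 (SE 0.0691, adjusted p = 0.00157). Its response in TAZKo, −0.17 (SE 0.07, adjusted p = 0.0642), became a call in 8 of 12 refits with 1 library left out. Kdm8 (JMJD5), an arginyl hydroxylase, fell in WT, at −0.43 (SE 0.0822, adjusted p = 0.000591). Its hypoxic genotype difference, 0.25 (SE 0.0827, adjusted p = 0.0341), was lost in 10 of 12 refits with 1 library left out (all but those without WT normoxia replicates 1 or 3), with adjusted p up to 0.115. Tyw5, which hydroxylates a tRNA base, fell in TAZKo, at −0.25 (SE 0.0872, adjusted p = 0.0327), a call lost without TAZKo normoxia replicate 3 (−0.25, adjusted p = 0.0725), TAZKo hypoxia replicate 2 (−0.24, adjusted p = 0.0796) or replicate 3 (−0.28, adjusted p = 0.0512). Jmjd4, a lysyl hydroxylase of a translation release factor, was called in no comparison. Its response in TAZKo became a call in 1 of 12 refits with 1 library left out (adjusted p = 0.0498).

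Both tested TET genes rose in hypoxia in both genotypes. Tet2 stood at 23.4, 31.5 and 33.2 CPM in WT normoxia and 59.9, 62.1 and 68.8 CPM in WT hypoxia. The TAZKo series ran 32.9, 31.9 and 36 CPM in normoxia and 55.0, 52.6 and 58.7 CPM in hypoxia. All hypoxic libraries lay above all normoxic ones; WT normoxia replicate 1 was lowest, and TAZKo hypoxia lay below WT hypoxia. The rise was 1.11 (SE 0.109, adjusted p = 1.92e-06) in WT, or 0.97 (adjusted p = 9.88e-08) without that library, and 0.72 (SE 0.108, adjusted p = 0.000124) in TAZKo. In hypoxia the genotype difference was −0.20 (SE 0.106, adjusted p = 0.175), and without WT normoxia replicate 1, which changes the shared estimate of the spread, it was −0.20 (adjusted p = 0.0232). Tet3 averaged 159 ± 9.31 CPM in WT normoxia and 208 ± 7.24 CPM in WT hypoxia (SD, n = 3) and rose by 0.38 (SE 0.0616, adjusted p = 0.000166); its TAZKo rise was 0.31 (SE 0.0615, adjusted p = 0.00125). Per kb, Tet3 made up 84.7% ± 1.62 of the Tet2 and Tet3 sum in WT normoxia and 76.7% ± 0.996 in WT hypoxia, and remained the more abundant of the pair in every library.

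The 2 RNA demethylases of N6-methyladenosine moved in opposite directions. Alkbh5, a nuclear enzyme that acts on this mRNA mark, stood at 191, 216 and 212 CPM in WT normoxia and 475, 438 and 475 CPM in WT hypoxia. For Alkbh5 the TAZKo values were 189, 193 and 193 CPM and 454, 469 and 423 CPM. Hypoxic libraries were all above normoxic ones, and genotypes overlapped in both conditions. Alkbh5 rose by 1.17 (SE 0.0638, adjusted p = 6.68e-09) in WT and 1.23 (SE 0.0639, adjusted p = 5.89e-09) in TAZKo. Its normoxic genotype difference of −0.11 (SE 0.0633, adjusted p = 0.232) was −0.16 (adjusted p = 0.0371) without WT normoxia replicate 1. Fto, the other enzyme of this kind, averaged 136 ± 5.27 CPM in WT normoxia and 103 ± 10.1 CPM in WT hypoxia (SD, n = 3). Its fall was −0.40 (SE 0.0692, adjusted p = 0.000279) in WT and −0.25 (SE 0.0691, adjusted p = 0.01) in TAZKo. Per kb, Alkbh5 took 76.7% ± 1.90 of the sum of both in WT normoxia and 90.7% ± 0.707 in WT hypoxia, and the TAZKo shares were 78.6% ± 0.802 in normoxia and 91.1% ± 0.268 in hypoxia. The hypoxic shares did not overlap the normoxic ones.

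Alkbh8, which modifies wobble uridines of tRNA, had the largest fall among the AlkB genes. It stood at 22.0, 35.4 and 35.0 CPM in WT normoxia and 19.3, 20.1 and 21 CPM in WT hypoxia, against 21.1, 23.0 and 25.2 CPM and 16.3, 13.3 and 16.9 CPM in TAZKo. WT normoxia replicate 1 lay with the TAZKo normoxia libraries, well below the other WT normoxia libraries. The fall was −0.61 (SE 0.152, adjusted p = 0.00417) in WT and −0.58 (SE 0.155, adjusted p = 0.00786) in TAZKo. The normoxic genotype difference was −0.41 (SE 0.15, adjusted p = 0.0526); it was −0.40 (adjusted p = 0.0219) with replicate numbers as a block and −0.60 (adjusted p = 0.000153) without WT normoxia replicate 1. It also became a call without WT hypoxia replicate 1 (−0.45, adjusted p = 0.0455), TAZKo hypoxia replicate 2 (−0.45, adjusted p = 0.0417) or replicate 3 (−0.45, adjusted p = 0.0489). The hypoxic genotype difference, −0.38 (SE 0.157, adjusted p = 0.0791), was −0.39 (adjusted p = 0.00331) without WT normoxia replicate 1.

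Of the other AlkB genes, Alkbh1, which acts on tRNA, fell in both genotypes, at −0.46 (SE 0.0963, adjusted p = 0.00121) in WT and −0.49 (SE 0.0943, adjusted p = 0.000944) in TAZKo. Alkbh4, an actin demethylase, also fell in both, at −0.40 (SE 0.0918, adjusted p = 0.00257) in WT and −0.35 (SE 0.0906, adjusted p = 0.00679) in TAZKo. Alkbh7, a mitochondrial protein, was called lower in WT at −0.42 (SE 0.15, adjusted p = 0.0324), although its groups overlapped. That call was lost without WT normoxia replicate 1 (−0.28, adjusted p = 0.111), WT hypoxia replicate 2 (−0.42, adjusted p = 0.0618) or replicate 3 (−0.37, adjusted p = 0.0828). The normoxic genotype difference of Alkbh7 was −0.29 (SE 0.148, adjusted p = 0.162), and −0.28 (adjusted p = 0.0365) with the replicate block. Alkbh3, which repairs alkylated DNA and RNA, was called for genotype, at 0.43 (SE 0.0801, adjusted p = 0.00119) in normoxia and 0.25 (SE 0.0808, adjusted p = 0.0268) in hypoxia. The hypoxic call of Alkbh3 was lost without WT hypoxia replicates 2 or 3 or TAZKo hypoxia replicates 2 or 3, with adjusted p up to 0.12. Its response in TAZKo, −0.20 (SE 0.0793, adjusted p = 0.0589), became a call in 8 of 12 such refits. Alkbh2, a DNA repair enzyme, and Alkbh6 were called in no comparison. The normoxic genotype difference of Alkbh2 became a call in 1 of 12 refits with 1 library left out (adjusted p = 0.0457).

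Promoters of the members that rose most were searched for the core of the hypoxia response element, the sequence through which HIFs bind DNA, written ACGTG or GCGTG and read on both strands. RefSeq windows of 250 bases before an annotated start (GRCm38.p6) existed for 35 of the 41 members. Kdm2a, Kdm3b, Kdm4b, Kdm5a, Kdm6b and Hr had none. The core was found in 20 of 35 members (57.1%), against 38.6% of all 32851 windows and 41.5% of the genes with a window. Those 27025 genes include many that were not tested here, so they are no matched background, and the gap was not tested. A gene was counted if any of its windows held the core, so genes with more windows had more chances. Of the 9 members with a window among the 14 that rose in both genotypes, 7 (77.8%) held it, as did 2 of the 6 that fell in both (33.3%) and 11 of the 20 others (55%). The following stretches of 30 bases are shown because they hold the matches in the members with the largest rises, 5′ to 3′ on the gene's strand, with the core in capitals (CACGT and CACGC are the core on the opposite strand).
Kdm3a, chr6:71632927-71632956, minus strand: ccgggaggctgtGCGTGtcttgtgagagag
Jmjd6, chr11:116843660-116843689, minus strand: aggccgggctcgCACGTaggggagtccagg
Jmjd6, chr11:116843443-116843472, minus strand: ggcgcccaattgGCGTGcatgaaggcgggt
Kdm5b, chr1:134559937-134559966, plus strand: ccaaaatatatgACGTGattgatggattgt
Kdm5b, chr1:134560147-134560176, plus strand: cggaggagcactGCGTGgggtagcggcaag
Jmjd1c, chr10:67126840-67126869, plus strand: ctctgcgaccgcGCGTGggagccgagcccc
Jmjd1c, chr10:67127019-67127048, plus strand: cccgcggaaggaCACGCggcgcggccggag
The Kdm3a match began 27 bases before the start, those of Jmjd6 228 and 11 bases, those of Kdm5b 229 and 19 bases, and those of Jmjd1c 236 and 57 bases. The Kdm3a match lies in 1 of its 3 windows, which belong to different annotated starts, and its other windows hold none. Both Jmjd1c matches lie in 1 of its 2 windows. GENCODE places Kdm3a at chr6:71588972-71632990, Jmjd6 at chr11:116837432-116843449, Kdm5b at chr1:134560171-134635285 and Jmjd1c at chr10:67096125-67256326 (GRCm38), so the matches of Kdm3a and Jmjd1c lie inside the gene's span and those of Jmjd6 and Kdm5b upstream of it. Annotated exon of any gene covers 250 of the 250 bases of the Jmjd6 window, 73 of the Kdm3a window, 7 of the Kdm5b window and 0 of the Jmjd1c window. None of the matches lay within the longer palindrome CACGTG, which holds the same letters.

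Alkbh5 and Tet2 each held 1 match, 62 and 16 bases before the start. Their whole windows are shown because Alkbh5 was the most abundant riser and Tet2 the TET gene with the larger rise. Both lie within the GENCODE gene (chr11:60536381-60558512 for Alkbh5, chr3:133463679-133545139 for Tet2) but overlap no annotated exon.
Alkbh5, chr11:60537433-60537682, plus strand: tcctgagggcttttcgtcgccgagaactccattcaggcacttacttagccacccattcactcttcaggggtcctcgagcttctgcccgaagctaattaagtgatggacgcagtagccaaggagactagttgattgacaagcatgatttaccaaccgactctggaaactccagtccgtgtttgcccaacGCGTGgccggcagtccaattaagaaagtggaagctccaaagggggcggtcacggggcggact
Tet2, chr3:133544391-133544640, minus strand: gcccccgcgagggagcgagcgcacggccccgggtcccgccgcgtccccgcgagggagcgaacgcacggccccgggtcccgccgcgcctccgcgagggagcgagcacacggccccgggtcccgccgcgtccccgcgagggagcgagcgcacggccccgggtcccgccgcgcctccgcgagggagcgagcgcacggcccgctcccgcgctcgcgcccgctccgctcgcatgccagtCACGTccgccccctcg
A match of 5 letters describes the sequence and does not show that a factor binds there.

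Genotype differences were fewer than those with oxygen. In normoxia, 6 members had higher and 10 had lower levels under the TAZKo label, where 30.4% of all tested genes were called, 15.6% higher and 14.9% lower. In hypoxia, 4 were higher and 5 lower, where 32.8% of all genes were called, 15.8% higher and 16.9% lower. The member median was −0.08 in normoxia and −0.05 in hypoxia, beside 0.010 and −0.008 for all genes. Calls in both conditions were shared by Jmjd6, Kdm2a, Kdm5b and Riox1, all lower, which are 40% of the normoxic and 80% of the hypoxic list. Higher in both were Alkbh3, Jmjd8 and Kdm4a, which are 50% and 75%. These overlaps, too, were not computed over all tested genes. In the fit over all 12 libraries, the calls in normoxia alone were Jmjd1c, Kdm4c and Kdm7a (higher) and Fto, Hspbap1, Kdm3a, Kdm3b, Kdm5c and Riox2 (lower), and in hypoxia alone Kdm8 (higher) and Jarid2 (lower). Fto gave −0.26 (SE 0.0689, adjusted p = 0.0114) and Kdm5c −0.18 (SE 0.0562, adjusted p = 0.0267) in normoxia. Kdm4c gave 0.22 (SE 0.0646, adjusted p = 0.0214), a call lost in 9 of 12 refits with 1 library left out (each but those without WT normoxia replicates 1 or 3 or TAZKo normoxia replicate 1), and Kdm3b gave −0.17 (SE 0.0543, adjusted p = 0.0328), lost without TAZKo normoxia replicate 3 (−0.17, adjusted p = 0.0608). The hypoxic genotype difference of Kdm3b (from −0.19 to −0.14) became a call in 7 of 12 refits with 1 library left out, and that of Kdm4c (from 0.14 to 0.19 with 1 library left out) in 1 of 12 such refits and 7 of 9 other alternatives. In 21 members neither condition gave a call. Counts in hypoxia depended on single libraries: 4 members were higher in the full set and from 1 (without TAZKo hypoxia replicate 2) to 7 (without WT normoxia replicate 1) with 1 library left out, with 2 without WT hypoxia replicate 2, WT hypoxia replicate 3 or TAZKo hypoxia replicate 3. Lower members there numbered 11 without WT normoxia replicate 1. The calls gained without that library included Hr (adjusted p = 0.0145) and Phf2 (adjusted p = 0.0197), both higher. They also included Kdm6a (adjusted p = 0.00744) and Tet3 (adjusted p = 0.0183), both lower.

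Several chromosomes were shifted as a whole between genotypes, and these shifts are given beside the members they hold. The median over genes was 0.31 in normoxia on chromosome 10 (Jmjd1c), −0.27 on chromosome 19 (Kdm2a), −0.22 on chromosome 18 (Kdm3b) and −0.16 on chromosome 8 (Fto). Kdm3b, at −0.17, and Fto, at −0.26, were near or beyond the median of their chromosome, and the part of these shifts in the genotype differences was not tested. Kdm5b and Riox1, which had the lowest genotype differences in normoxia, lie on chromosomes 1 and 12, whose medians were −0.02 and 0.04.

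**Figure D4:**
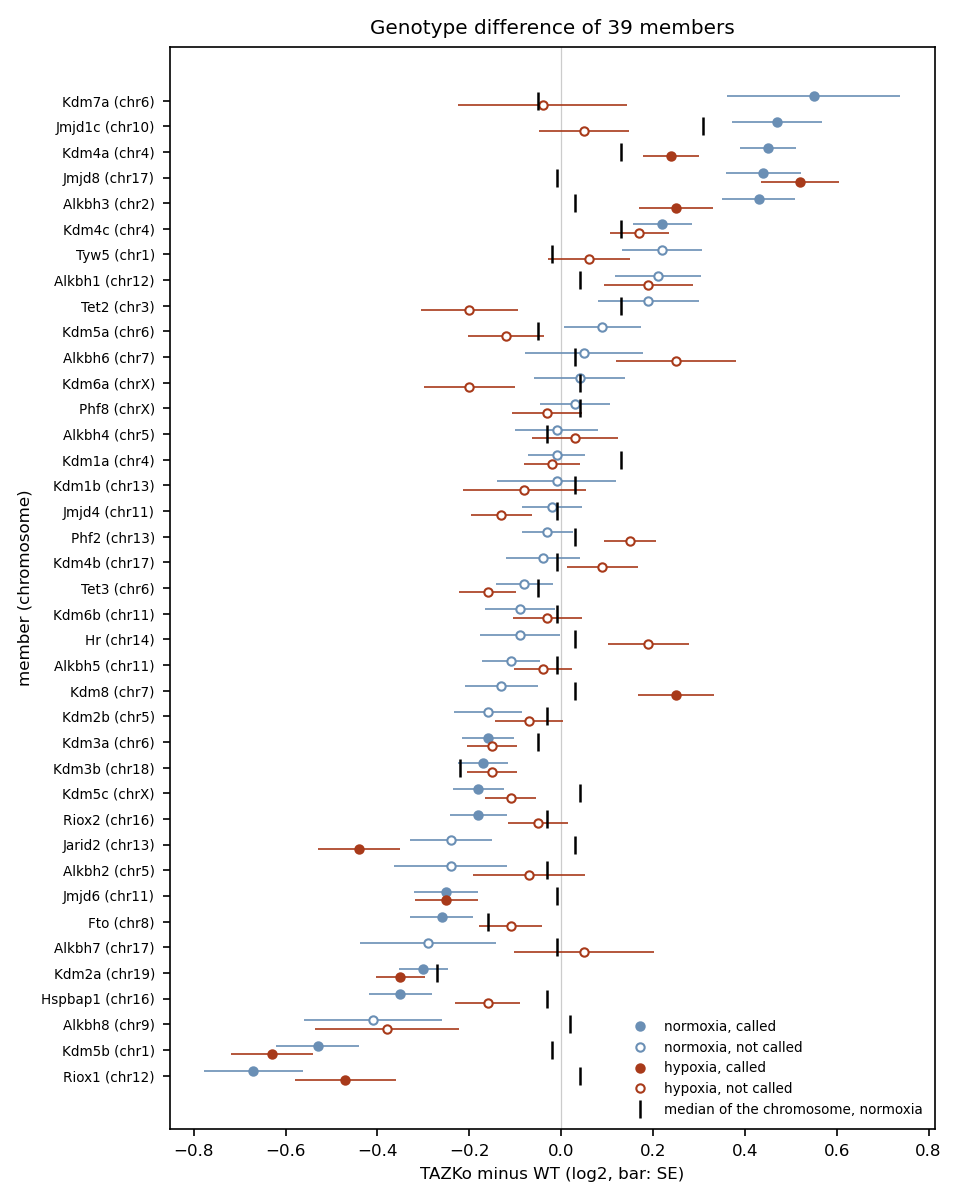
TAZKo minus WT (log2) of the 39 tested members in normoxia and hypoxia; bars are SE, filled points were called, and black ticks mark the median normoxic difference of all tested genes on that chromosome. Riox1 and Kdm5b are lowest in normoxia, at −0.67 and −0.53, and the Kdm2a points lie near the tick of chromosome 19 at −0.27.

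Whether the response to hypoxia itself differed between genotypes was tested by the interaction, the response in TAZKo minus that in WT. By edgeR 0 of 39 members were called, where 2.43% of all genes were (0.722% higher and 1.71% lower), and 7 members (Jmjd1c, Hr, Kdm4a, Kdm7a, Phf2, Kdm8 and Tet2) had an unadjusted p under 0.05. DESeq2 also called 0, with 6 at an unadjusted p under 0.05. The 95% interval of the interaction ran from −0.15 to 0.19 for Kdm3a, −0.22 to 0.21 for Jmjd6 and −0.13 to 0.25 for Alkbh5. The estimates were furthest from 0 for Kdm7a at −0.58 (SE 0.263, adjusted p = 0.303), Jmjd1c at −0.42 (SE 0.139, adjusted p = 0.154), Tet2 at −0.39 (SE 0.153, adjusted p = 0.223) and Kdm8 at 0.37 (SE 0.115, adjusted p = 0.121). Without WT normoxia replicate 1 the first 3 were −0.34 (adjusted p = 0.253), −0.30 (adjusted p = 0.127) and −0.26 (adjusted p = 0.206), and Kdm4a, at −0.22 (SE 0.0865, adjusted p = 0.239) with it, was −0.27 (adjusted p = 0.0441), a call. With no filter on low counts Kdm7a was called, at −0.53 (adjusted p = 0.0147).

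Genes that work with or against the members were taken from lists. Of 30 histone methyltransferase genes, 10 rose and 9 fell in WT hypoxia (63.3% called, beside 51% of all genes), and 4 rose and 6 fell in TAZKo hypoxia (33.3%, beside 43.8%). Suz12, a subunit of the H3K27 methyltransferase complex, had the largest rise in WT, 0.79 (SE 0.176, adjusted p = 0.00196), and Ezh1, a catalytic subunit of that complex, the largest fall in both, −0.73 (SE 0.0765, adjusted p = 3.34e-06) in WT and −0.55 (SE 0.0743, adjusted p = 5.09e-05) in TAZKo. Of 24 tested partners of the demethylases, 8 rose and 7 fell in WT (62.5%), and 3 rose and 5 fell in TAZKo (33.3%). Rcor2, a CoREST subunit that holds Kdm1a, rose by 1.74 (SE 0.0826, adjusted p = 1.48e-09) in WT and 2.02 (SE 0.0844, adjusted p = 5.46e-10) in TAZKo, while Kdm1a itself was not called. Between genotypes Rcor2 was lower in TAZKo, at −0.84 in normoxia and −0.56 in hypoxia.

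Of 15 tested genes of DNA methylation and its repair, 5 rose and 4 fell in WT hypoxia (60%, beside 51% of all genes), and 5 rose and 1 fell in TAZKo hypoxia (40%, beside 43.8%). Dnmt3b, a de novo DNA methyltransferase that acts against the TET genes, fell in both, at −1.10 (SE 0.0727, adjusted p = 4.15e-08) in WT and −1.18 (SE 0.0735, adjusted p = 3.92e-08) in TAZKo. Gadd45a, a stress-induced gene linked to DNA demethylation, rose by 2.46 (SE 0.143, adjusted p = 1.12e-08) in WT and 1.25 (SE 0.135, adjusted p = 6.91e-06) in TAZKo, with an interaction of −1.21 (SE 0.195, adjusted p = 0.00531). Of 21 genes that write or read RNA methylation, 6 rose and 4 fell in WT (47.6%), and 4 rose and 5 fell in TAZKo (42.9%). The largest rise among them was that of Rbm15 in WT, at 0.61, so none rose as far as Alkbh5, at 1.17.

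Genes that supply or remove 2-oxoglutarate and its relatives numbered 29 after the filter: 8 rose and 15 fell in WT hypoxia (79.3% called, beside 51% of all genes), and 7 rose and 14 fell in TAZKo hypoxia (72.4%, beside 43.8%). Ldha, a subunit of lactate dehydrogenase, rose by 2.04 (SE 0.0885) in WT and 2.34 (SE 0.0894) in TAZKo. Idh1, a cytosolic source of 2-oxoglutarate, had an interaction of −0.52 (SE 0.0878, adjusted p = 0.00646). Of 21 tested dioxygenases of other families, 9 rose and 6 fell in WT (71.4%), and 10 rose and 4 fell in TAZKo (66.7%). Egln3, a HIF prolyl hydroxylase, rose by 3.73 (SE 0.0735) in WT and 3.61 (SE 0.0726) in TAZKo, beyond the rise of any member. These counts describe the lists and were not tested against other genes.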

How the data were processed

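The 12 libraries (3 in each of 4 groups, grouped by the labels) were made from total RNA with an unstranded kit per the labels' protocols. The authors deposited raw read counts per gene; build mm10 is named in the submitters' processing notes, and the aligner and counter are not given in the sources used here. Of 48709 gene IDs, 48349 matched the GENCODE annotation of GRCm38. Counts were fitted with edgeR 4.0.16 in R 4.3.3 (quasi-likelihood test, expression filter, trimmed mean of M-values scaling, all 12 libraries in 1 model), with Benjamini-Hochberg adjustment over 14408 genes and calls at an adjusted p under 0.05. The common biological coefficient of variation was 8.62%. The 5 contrasts were the genotype difference under each oxygen condition, the hypoxia response of each genotype, and the difference between those responses. Alternatives were DESeq2 1.42.0, other scalings and filters, the replicate number as a block, the sequencing lane as a covariate, only the 6 samples compared, and each library left out. Intervals and floors cover counting error or the spread between these libraries only. The fit was also run on simulated counts in which a small set of genes changed, up and down equally, in WT hypoxia alone. That run does not test the scaling where changes are as widespread as in these data.

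The members and lists were chosen with earlier results of these data known. Members named with full values were Kdm1a, Kdm1b and those called with a difference of at least 0.5; from the other lists, the gene with the largest called difference in each direction was named. In the paired design check, samples with the same replicate number deviated together between genotypes in normoxia (correlations 0.35, 0.15 and 0.23) and between oxygen conditions in WT (0.37, 0.20 and 0.15), so the number may pair them there. In both, the largest value was that of replicate 1, which includes WT normoxia replicate 1. Deviations were taken from means of 3 libraries, so these correlations are not independent. This possible pairing comes from the data alone, since the labels name no shared batch. The sequencing lane partly follows the number. In normoxia, replicates 1 and 2 of both genotypes were in lane 4 and replicate 3 in lane 5. In WT hypoxia, replicate 1 was in lane 4 and replicates 2 and 3 in lane 5. Replicate number and lane are therefore not fully separate in the paired comparisons.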

Additional observations from a re-analysis of the deposited data

How the results depend on the processing

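No difference of a member that was called changed direction under any alternative run, while some differences near 0 that were not called crossed it with 1 library left out. Of the called members, 9 of 16 in normoxic genotype, 6 of 9 in hypoxic genotype, 23 of 28 for the WT response and 16 of 22 for the TAZKo response kept their call in every alternative. Of the members not called, 6, 9, 3 and 8 in the same order became a call in some alternative, as did 2 in the interaction. With only the 6 samples compared, lower members in the normoxic genotype comparison went from 10 to 5 and those in TAZKo hypoxia from 8 to 13, and with library size alone the latter was 15. In the hypoxic genotype comparison, lower members went from 5 to 9 with DESeq2 and 9 with the replicate block. With 1 library left out, higher members there ran from 1 to 7 and lower members from 5 to 11. The interaction called 1 member with no filter (Kdm7a) and from 0 to 1 with 1 library left out (Kdm4a without WT normoxia replicate 1). Over all genes, 350 interaction calls became 639 with the block, 578 with DESeq2, 727 with no filter and from 174 to 711 with 1 library left out. The cause of these shifts was not tested.

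With the replicate number as a block, members called higher and lower were 6 and 12 in normoxic genotype, 5 and 9 in hypoxic genotype, 16 and 13 for WT responses, 14 and 9 for TAZKo responses, and 0 in the interaction. Pairing changed no other call in the paired comparisons than those given for Alkbh7, Alkbh8 and Kdm1b. Between genotypes in hypoxia the correlations of same-numbered samples were 0.06, −0.02 and 0.12, and in TAZKo 0.03, −0.02 and 0.09, so there the samples share only a number.

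Kdm4d and Tet1 had 0 to 7 counts per library and were too low to test. WT normoxia replicate 1 decides several values. Strand was not recorded by the kit, so antisense neighbours can alter the counts of a member. The counter is not given, so it is not known whether they add or remove reads.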
